A study of Mus musculus with 12 samples.

Results

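The mitochondrially encoded genes are the rows of the count tables placed on the mitochondrial chromosome (MT). They numbered 35 of the 49315 genes in the tables, with 13 mRNAs and 22 tRNAs, and the start, end and strand of all 35 are the same in GENCODE M21, the annotation used here, on the mouse build GRCm38. GENCODE M21 lists 37 genes on this chromosome, and both ribosomal RNAs, mt-Rnr1 and mt-Rnr2, are not analysed here. RNA came from cultured primary mouse cells labelled Müller glia, the support cells of the retina, genotype WT. They had shared medium through a transwell membrane with primary retinal pigment epithelium (RPE) cells treated with 100 nM PNU-282987 (PNU), which activates α7 nicotinic acetylcholine receptors, or with the solvent alone. The design asks whether cells facing treated epithelium differ from cells facing control epithelium after 2 h and after 6 h. The 12 libraries fall into 4 groups of 3: DMSO 2 h, PNU 2 h, DMSO 6 h and PNU 6 h. All cells had been passaged, 4 times by the series' design text, and all groups carried DMSO, for which the protocols state both 0.1% and 1%. The replicates are titled biological, but separate animals or cultures are not named, so every p-value below measures the spread between these samples only.

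The mitochondrial genome encodes core subunits of the oxidative phosphorylation chain, which moves electrons from NADH to oxygen and uses the resulting proton gradient to make ATP, and the RNAs that translate them. Both strands are transcribed as long RNAs, and tRNAs punctuate the mRNAs and are cut out to release them. Most mRNAs receive a short poly(A) tail, while mature tRNAs do not, so tRNA rows in a poly(A)-selected library are expected to catch little mature tRNA. All other subunits of the chain come from nuclear genes, and in the retina Müller glia are known for a strongly glycolytic metabolism.

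Stretches of mitochondrial DNA have also been copied into the nuclear genome. The first bases of mt-Co2 and mt-Nd3 and an inner stretch of mt-Co1 are shown with their annotated nuclear copies on chromosome 1. These genes are shown because mt-Co2 and mt-Nd3 had almost no counts and mt-Co1, which the copy follows only in part, had the most. Sequences are the GENCODE M21 transcripts on GRCm38, written 5′ to 3′, and capitals mark bases that differ between the members of a pair. The first pair, mt-Co2 at chrM:7013-7112 (plus strand) and Gm28661 at chr1:24615466-24615565 (minus strand), has no capitals.
mt-Co2: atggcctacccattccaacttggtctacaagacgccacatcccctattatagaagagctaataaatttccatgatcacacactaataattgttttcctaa
Gm28661: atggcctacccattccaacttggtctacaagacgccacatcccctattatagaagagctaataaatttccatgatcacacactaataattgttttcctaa
The second pair, mt-Nd3 at chrM:9459-9558 (plus strand) and Gm28438 at chr1:24613020-24613119 (minus strand), differs by T3C, counted from 1 at the first base of mt-Nd3.
mt-Nd3: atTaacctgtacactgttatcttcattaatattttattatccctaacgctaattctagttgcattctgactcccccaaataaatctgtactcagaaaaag
Gm28438: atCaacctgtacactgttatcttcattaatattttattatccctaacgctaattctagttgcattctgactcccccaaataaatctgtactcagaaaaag
The last pair lies inside mt-Co1 at chrM:6381-6480 (plus strand), where its copy Gm29216 at chr1:24616098-24616197 (minus strand) begins.
mt-Co1: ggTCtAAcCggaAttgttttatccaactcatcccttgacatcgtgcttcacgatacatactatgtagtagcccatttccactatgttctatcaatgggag
Gm29216: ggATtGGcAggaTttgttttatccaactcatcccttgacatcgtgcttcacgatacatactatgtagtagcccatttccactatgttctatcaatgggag
Counted from the first base of mt-Co1, the differences are T1056A, C1057T, A1059G, A1060G, C1062A and A1066T. From base 1067 the remaining 479 bases of mt-Co1 are identical in the copy.

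The libraries held 44332013 to 66518799 counts, of which 422458 to 807938 fell on mitochondrial genes. Levels are counts scaled to the library total (CPM), and 3 counts, taken as the floor of detection, equal 0.0451 to 0.0677 CPM, which covers counting error only. Of 8 Müller glia markers, 6 had a median above 1 CPM. Vim stood at 6063 to 7451 CPM and Glul, glutamine synthetase, at 61.5 to 94.4 CPM, whereas the defining markers Rlbp1 and Aqp4 reached at most 0.302 and 0.218 CPM. All 6 fibroblast or pericyte markers had a median above 100 CPM, with Col1a1 at 3509 to 4895 CPM. These markers do not establish that the cells were Müller glia, as labelled, and the cell type was not tested. Of 6 RPE markers, 0 had a median above 1 CPM. Rpe65 and Rgr reached at most 0.0442 CPM and 0, while Best1 and Ttr reached 0.579 and 0.740 CPM. The libraries were not equally independent: 5 pairs within groups (PNU 2 h replicates 2 and 3, PNU 6 h replicates 2 and 3, and the 3 pairs of DMSO 6 h) differed by a coefficient of variation of only 0.0163 to 0.0223, against 0.148 to 0.384 for the other 7 pairs, though each pair differed by more than sampling noise (chi-square per degree of freedom of 1.96 to 3.17). DMSO 2 h replicate 3 and PNU 6 h replicate 1 stood apart from their groups. The Y-linked gene Ddx3y was at 2.23 to 7.43 CPM in DMSO 2 h replicate 3, PNU 2 h replicate 1 and PNU 6 h replicates 2 and 3. It was at 0.141 CPM or less in the other 8 libraries, so libraries of 1 group came from cell populations that differed in it. The groups were uneven in this, as no DMSO 6 h library had the higher level. PNU against DMSO at 6 h, and 6 h against 2 h with PNU or with DMSO, cannot be fully told apart from this difference in cell population. The same holds for the difference between the PNU effects at 6 h and at 2 h.

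The mitochondrial rows counted took about 1% of the counts in every group, and PNU made no difference that stood clear of the spread. This share leaves out the ribosomal RNAs, and 6 of the mRNAs together added only 15 to 56 counts per library to it. The share was 0.738%, 1.34% and 1.07% in the 3 DMSO 2 h libraries, with a mean of 1.05% ± 0.302 (SD, n = 3). In PNU 2 h it was 0.933%, 0.971% and 0.933%, with a mean of 0.946% ± 0.0218 (SD, n = 3). In DMSO 6 h it was 1.20%, 1.26% and 1.20% (1.22% ± 0.0353, SD, n = 3), and in PNU 6 h 1.14%, 1.26% and 1.17% (1.19% ± 0.0584, SD, n = 3). The lowest and the highest share of the series are both DMSO 2 h libraries, replicates 1 and 2, and all PNU 2 h values lie between them. The PNU minus DMSO difference was -0.105 percentage points at 2 h and turned to 0.0399 without DMSO 2 h replicate 2. At 6 h it was -0.0283 percentage points and the groups overlapped. With PNU, all 6 h libraries lay above all 2 h libraries, by 0.245 percentage points on average and by 0.213 to 0.269 with any of the 6 libraries left out. Replicates 2 and 3 are near-identical in both PNU groups, so leaving 1 of them out keeps its twin. With DMSO the 6 h minus 2 h difference was 0.169 percentage points and fell to 0.0123 without DMSO 2 h replicate 1. A lower share of RNA per cell and fewer cells rich in mitochondria cannot be told apart in bulk RNA. No test was made on the share, because it is a sum over the chosen genes.

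**Figure D1:**
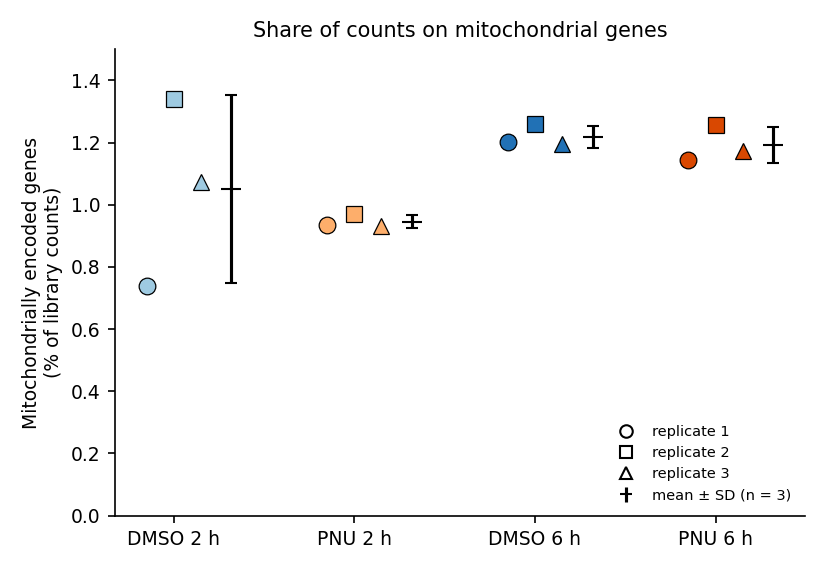
Share of each library's counts on mitochondrially encoded genes (y axis, %) by group (x axis); symbols mark replicates 1 to 3, and the cross with bars is the mean ± SD (n = 3). DMSO 2 h spans 0.738% to 1.34%, while the other groups, each of which holds near-identical libraries, are tight. PNU 6 h lies wholly above PNU 2 h. The ribosomal RNAs are not part of the share.

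The 13 mRNAs split into 7 with at least 5401 counts in every library and 6 that never exceeded 24 counts. Levels are compared between genes as CPM per kilobase of gene length. Among the 7, mt-Co1 (MT 5328 to 6872), the catalytic subunit of cytochrome c oxidase (complex IV), was highest. Its CPM per kilobase was 2170, 3767 and 2868 in DMSO 2 h, 2493, 2531 and 2443 in PNU 2 h, 3359, 3547 and 3410 in DMSO 6 h, and 3206, 3399 and 3273 in PNU 6 h. By CPM it ranked 8th to 20th among all genes of a library and gave 40.5% to 45.6% of the mitochondrial mRNA counts. mt-Cytb (MT 14145 to 15288), the cytochrome b subunit of complex III, came next in every library. Its CPM per kilobase was 1458, 2406 and 2133 in DMSO 2 h, 1876, 1916 and 1833 in PNU 2 h, 2188, 2300 and 2161 in DMSO 6 h, and 2126, 2270 and 2038 in PNU 6 h. For both genes the DMSO 2 h libraries enclose the PNU 2 h libraries, and DMSO 6 h and PNU 6 h overlap.

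The remaining 5 well-covered mRNAs encode membrane subunits of complex I, the NADH dehydrogenase. In CPM per kilobase, mt-Nd1 (MT 2751 to 3707) ranged from 804 to 1488 and followed mt-Cytb in every library. mt-Nd2 (MT 3914 to 4951) ranged from 365 to 876 and mt-Nd5 (MT 11742 to 13565) from 419 to 829, with ranges that overlap almost wholly. mt-Nd4 (MT 10167 to 11544) ranged from 238 to 540 and mt-Nd6 (MT 13552 to 14070) from 176 to 508, which also overlap. mt-Nd6 is the only mRNA read from the minus strand, and because no source used here states whether counting was stranded, its reads and those of RNA from the opposite strand cannot be told apart. In each of these 5 genes the lowest of the 12 values was DMSO 2 h replicate 1. That library also differed in composition: mt-Nd2 made up 5.16% of its mitochondrial mRNA counts against 6.09% to 7.09% in the other 11, mt-Nd4 4.47% against 5.13% to 5.57%, and mt-Nd6 1.24% against 1.62% to 2.11%.

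The 6 mRNAs near 0 were mt-Co2 and mt-Co3, which encode the other core subunits of complex IV, mt-Atp6 and mt-Atp8 of the ATP synthase, and mt-Nd3 and mt-Nd4l of complex I. Across the 12 libraries mt-Co2 had 5 to 24 counts, mt-Atp6 5 to 15, mt-Co3 3 to 11, mt-Atp8 1 to 10, mt-Nd4l 0 to 8 and mt-Nd3 0 to 4. Neighbours on the same long transcript, mt-Co1 before them and mt-Nd4 after them, had 174306 to 337770 and 19443 to 43513 counts. The step between neighbouring genes was thus far larger than any difference between groups.

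All 6 lie on a single stretch of MT of which chromosome 1 holds a near-identical copy. A set of 7 annotated copies lies in the same order within 4663 bases of chromosome 1 (24611535 to 24616197) and corresponds to 4662 bases of MT (6381 to 11042). Gm28661 matches mt-Co2 over 681 bases, Gm10925 matches mt-Atp6 over 678, Gm28437 matches mt-Co3 over 783 and Gm10222 matches mt-Nd4l over 294, all with 0 mismatches. Gm28438 matches mt-Nd3 over 345 bases with 1 mismatch, shown above. Gm28439 matches the first 876 bases of mt-Nd4 without mismatch. The sequence between the annotated copies was not compared, and mt-Atp8 has no annotated copy of its own.

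Windows of 150 bases, the length of a read, were compared between each mitochondrial mRNA and all nuclear transcripts of GENCODE M21. An identical nuclear window existed for 99.4% of the windows of mt-Co2, 99.4% of mt-Atp6, 99.8% of mt-Co3, 97.0% of mt-Nd3 and 98.0% of mt-Nd4l. The share was 59.2% in mt-Nd4, 23.6% in mt-Co1 and 0% in mt-Nd1, mt-Nd2, mt-Nd5, mt-Nd6 and mt-Cytb. For mt-Atp8 it was also 0%, and only annotated transcripts were searched. In terms of position, 11 genes (6 mRNAs and 5 tRNAs) lie wholly between MT 6394 and 11042, a range set after their values were seen, and their highest value in any library was 24 counts. Some tRNAs outside it also stayed under 24 counts, with 5 to 20 for mt-Ts2, 4 to 21 for mt-Tm and 1 to 23 for mt-Ti. The 5 tRNAs inside it were lower, with at most 1 count in any library. A total of 2 genes, mt-Co1 and mt-Nd4, lie partly inside it, and 22 lie outside. Over windows without a nuclear match, the median level of mt-Nd4 was 1203 CPM per 1000 windows, against 803 for mt-Nd5 and 849 for mt-Nd2, so mt-Nd4 moves above both on this scale. On the same scale mt-Co1 was at 4695 and mt-Cytb at 2449 CPM per 1000 windows.

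The copies themselves had few counts. Gm28438, the copy of mt-Nd3, had 137 to 329 counts per library, more than mt-Nd3 in every library. Gm28437 had 26 to 93 counts and Gm28661 10 to 30, and all 7 copies together had 214 to 539. The sources used here do not state how reads that fit several places were counted, and the part of this setting in the low values was not tested. The low rows are therefore uncertain as levels, and a difference between groups was not detectable in them at these counts.

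**Figure D2:**
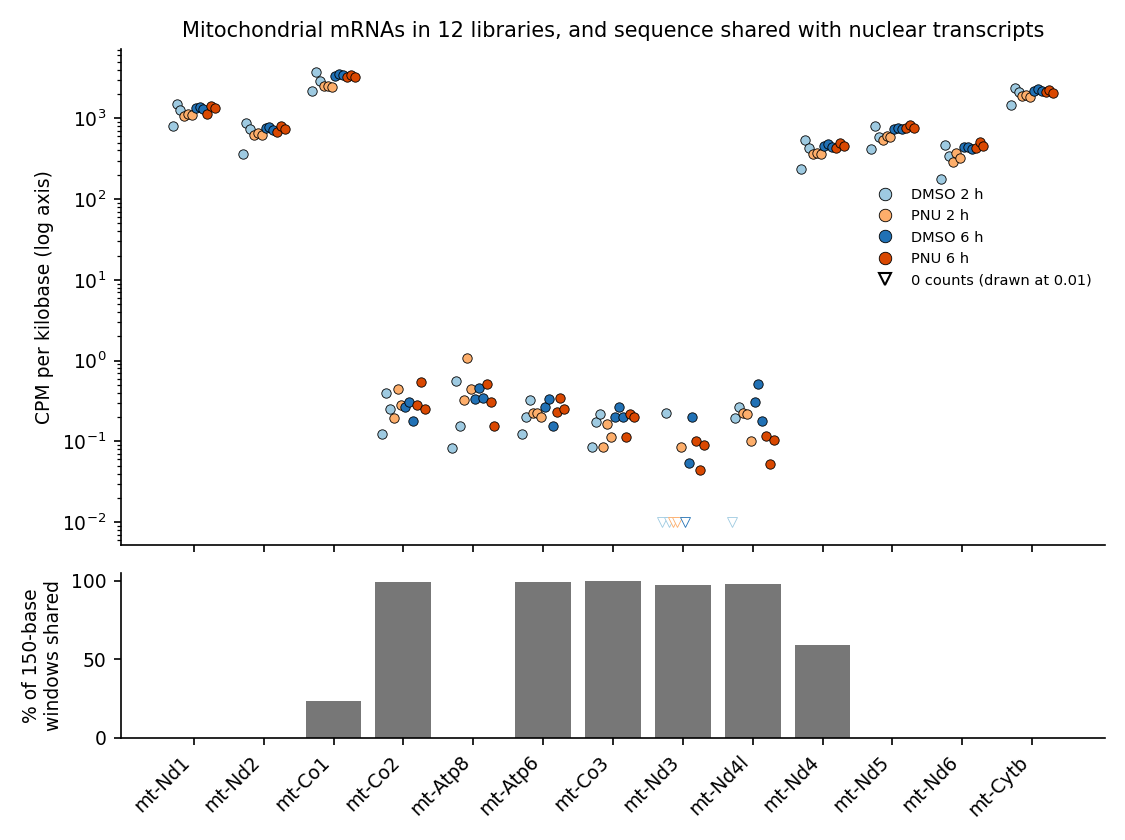
Top, CPM per kilobase (log axis) of the 13 mitochondrial mRNAs in map order, 1 point per library coloured by group, with libraries at 0 counts drawn as open triangles at 0.01. Bottom, percent of each gene's 150-base windows with an identical window in an annotated nuclear transcript; 5 of the 6 low genes stand at 97.0% or more and mt-Atp8, which has no annotated copy, at 0%.

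Facing PNU-treated epithelium for 2 h, the cells labelled Müller glia showed no called change in any mitochondrial mRNA. A gene was called at a Benjamini-Hochberg adjusted p under 0.05 over all 17164 genes that edgeR's filter kept, among them 9 of the 13 mRNAs (the 7 above, mt-Co2 and mt-Atp6). Of these 9, edgeR called 0, against 0.291% of all genes tested; 0 had an unadjusted p under 0.05, and DESeq2 and limma-voom also called 0. The CPM of PNU and DMSO libraries overlapped for all 9, where 22.7% of all genes did not overlap. mt-Co1 had the smallest adjusted p of the 9, 0.329 by edgeR, with a log2 fold change (PNU over DMSO) of -0.19 ± 0.13 (SE) and a 95% interval of -0.48 to 0.10. For mt-Cytb the log2 fold change was -0.05 with an interval of -0.33 to 0.23, and for mt-Nd5 it was -0.02 with an interval of -0.36 to 0.32. The intervals of mt-Nd1 (-0.42 to 0.28), mt-Nd4 (-0.52 to 0.34), mt-Nd2 (-0.49 to 0.46) and mt-Nd6 (-0.49 to 0.57) were wider, and those of the low-count mt-Atp6 (-0.91 to 0.97) and mt-Co2 (-0.74 to 1.37) the widest. The median over the 9 was -0.02 and over all genes -0.01. Without DMSO 2 h replicate 1 it moved to -0.25, with 5 of the 9 at an unadjusted p under 0.05 and a smallest edgeR adjusted p of 0.142. Without DMSO 2 h replicate 2 it moved to 0.15, with 0 at an unadjusted p under 0.05, and 0 were called in both fits.

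At 6 h, too, PNU gave no called change in a mitochondrial mRNA. Of the 9 tested mRNAs edgeR called 0, where 1.05% of all genes were called, and 0 had an unadjusted p under 0.05; DESeq2 and limma-voom called 0 as well. None of the 9 separated the PNU from the DMSO libraries, against 34.9% of all genes. The untested mt-Nd4l did, with 1 to 2 counts in the PNU libraries and 3 to 8 in the DMSO libraries. mt-Co1 stood at 5313 ± 150 CPM (SD, n = 3) in DMSO 6 h and 5087 ± 151 CPM in PNU 6 h, a log2 fold change of -0.05 with an interval of -0.34 to 0.24. mt-Nd5 stood at 1364 ± 32.7 and 1436 ± 65.3 CPM (SD, n = 3), a log2 fold change of 0.09 with an interval of -0.25 to 0.42. The smallest adjusted p by edgeR, 0.626, belonged to mt-Co2, which rests on 7 to 24 counts per library. The difference between the PNU effects at 6 h and at 2 h was tested as well: 0 of the 9 were called, with 0 at an unadjusted p under 0.05, against 0.035% of all genes, and the smallest edgeR adjusted p was 0.791.

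Between 2 h and 6 h with PNU, no tested mitochondrial mRNA passed the test. All 9 had a positive log2 fold change, from 0.13 to 0.45, with a median of 0.28 against 0.03 over all genes. Without PNU 6 h replicate 2 the median was 0.12, and 0 of the 9 had an unadjusted p under 0.05. In 8 of the 9, all but mt-Co2, every 6 h library lay above every 2 h library, where 30.7% of all genes did so in this direction. Most of these mRNAs are cut from the same long RNA, so the 9 rows are not independent of each other. edgeR called 0 of the 9, where 16.1% of all genes were called, and 2 had an unadjusted p under 0.05; DESeq2 and limma-voom called 0. mt-Co1 was at 3851, 3911 and 3775 CPM in PNU 2 h and at 4954, 5251 and 5057 CPM in PNU 6 h, a log2 fold change of 0.34 ± 0.13 (SE, edgeR adjusted p = 0.0927). mt-Nd5 was at 979, 1092 and 1072 CPM in PNU 2 h and at 1396, 1511 and 1401 CPM in PNU 6 h, a log2 fold change of 0.40 ± 0.15 (SE, edgeR adjusted p = 0.0939). Both genes separate the times without overlap. When the 6 PNU libraries were fitted alone, mt-Co1, mt-Nd4, mt-Nd5 and mt-Nd6 were called higher at 6 h, with a smallest edgeR adjusted p of 0.00407, where 32.1% of all genes were called. Counting each set of near-identical libraries as 1 sample left 8 samples (3 DMSO 2 h, 2 PNU 2 h, 1 DMSO 6 h and 2 PNU 6 h), and the lone DMSO 6 h sample is assumed to vary like the other groups. In this small design 0 mRNAs and 0 of all genes were called, and the median over the 10 mRNAs then tested was 0.25.

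With DMSO, edgeR called 0 mitochondrial mRNAs and 0% of all genes between 6 h and 2 h, with 818 genes at an unadjusted p under 0.05, and DESeq2 called 18 genes. None of the 9 had an unadjusted p under 0.05, and DESeq2 and limma-voom called 0 of them. The median log2 fold change was 0.17 against -0.01 over all genes, 8 of 9 were positive, and all 9 overlapped between the times, where 9.75% of all genes did not. The median was -0.06 without DMSO 2 h replicate 1. It was 0.39 without DMSO 2 h replicate 2, with 4 of the 9 at an unadjusted p under 0.05, a smallest edgeR adjusted p of 0.119 and 0 called. The time contrasts with PNU and with DMSO share no library, but their difference is the one already given above, for which edgeR called none.

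**Figure D3:**
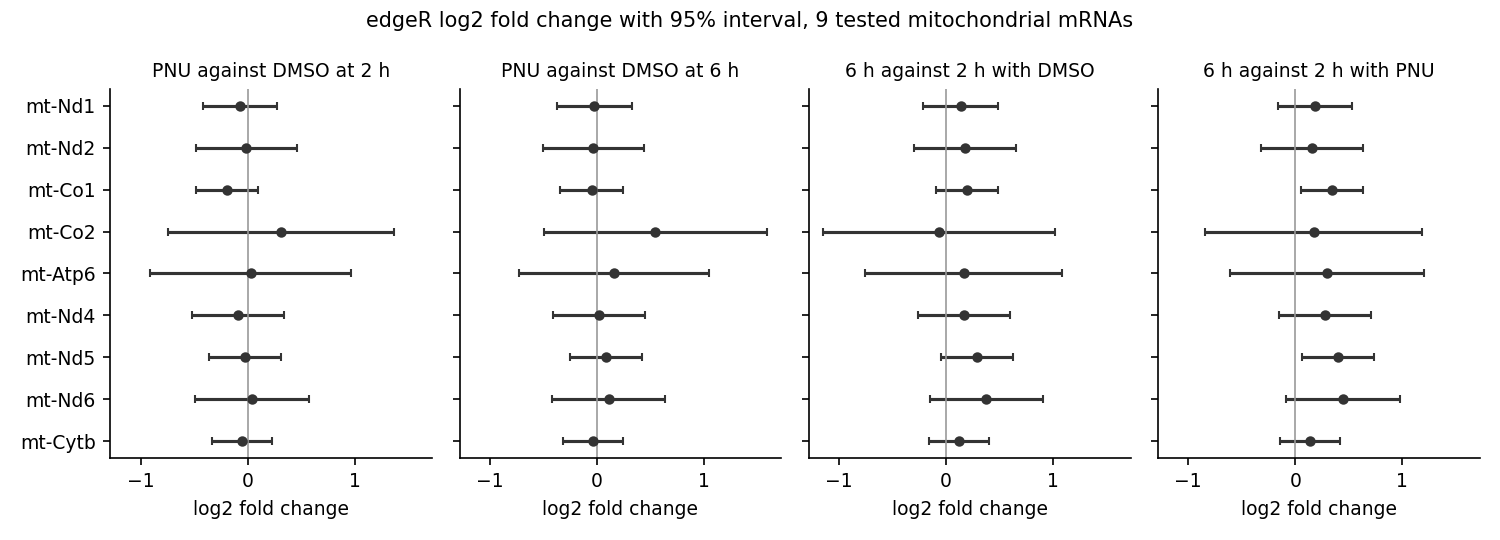
edgeR log2 fold changes (points, x axis) with 95% intervals (bars) of the 9 tested mitochondrial mRNAs (y axis) in 4 comparisons. PNU against DMSO lies around 0 at both times, and with PNU all 9 points for 6 h against 2 h lie above 0, from 0.13 to 0.45, with the widest intervals for the low-count mt-Co2 and mt-Atp6.

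The tRNA rows together held only 0.00253% to 0.00613% of the counts. Of the 22, 4 (mt-Ts1, mt-Td, mt-Tk and mt-Tg) had 0 counts in all libraries and mt-Tr had 1 count in a single library; all 5 lie between MT 6394 and 11042. A count of 0 allows up to 0.0451 to 0.0677 CPM, depending on the library. mt-Tl1, mt-Te, mt-Tp and mt-Tn, which carry leucine, glutamate, proline and asparagine, had at least 100 counts in each library, with 297 to 1054, 266 to 615, 271 to 828 and 186 to 588 counts. Each tRNA gene is shorter than a read, so its counts come from reads that reach into neighbouring sequence or from short fragments, and which of these was not tested. The 8 minus-strand tRNAs together had 1.33 to 2.80 times the CPM of the 14 plus-strand ones. Of the 5 rows with at most 1 count, all but mt-Ts1 are on the plus strand, so the sums are not like for like. Whether counting was stranded is not stated, so the ratio does not measure RNA made from each strand.

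The tRNA genes mt-Ta, mt-Tn, mt-Tc and mt-Ty, for alanine, asparagine, cysteine and tyrosine, sit side by side on the minus strand between mt-Tw and mt-Co1, opposite the long RNA that carries the mRNAs. They are shown because the member called in the fit over all libraries and those nearest the threshold are among them. Capitals mark the anticodon letters, and the positions are chrM:5089-5159, chrM:5192-5257, chrM:5260-5326 and chrM:5018-5086, all on the minus strand.
mt-Tn: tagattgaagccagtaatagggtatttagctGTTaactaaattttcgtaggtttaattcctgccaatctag
mt-Tc: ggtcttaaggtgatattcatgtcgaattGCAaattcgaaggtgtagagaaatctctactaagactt
mt-Ty: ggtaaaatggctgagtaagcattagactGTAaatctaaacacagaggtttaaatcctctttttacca
mt-Ta: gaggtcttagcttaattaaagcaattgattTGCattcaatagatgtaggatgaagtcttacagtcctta

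mt-Tn rose between 2 h and 6 h with PNU and was the only mitochondrial gene called in any comparison by edgeR in the fit over all 12 libraries without a replicate block. It was at 4.11, 4.33 and 4.09 CPM in PNU 2 h and at 7.43, 9.14 and 8.18 CPM in PNU 6 h, with no overlap. The log2 fold change was 0.92 ± 0.22 (SE) with an edgeR adjusted p of 0.0224, and mt-Tn was 1 of 17 tRNAs tested, where 7.42% of all genes were called higher. In DMSO 2 h it was at 4.54, 10.0 and 5.36 CPM and in DMSO 6 h at 9.16, 8.79 and 9.88 CPM, so DMSO 2 h replicate 2 alone of the 2 h libraries was at the 6 h level. The test of the difference between the PNU and the DMSO time effects gave mt-Tn an edgeR adjusted p of 0.599. The call was lost without PNU 2 h replicate 1 (edgeR adjusted p = 0.0643), replicate 2 (0.0730) or replicate 3 (0.0812), and without PNU 6 h replicate 2 (0.0700) or replicate 3 (0.0579). It held without PNU 6 h replicate 1 (0.0335), and with near-identical libraries summed the log2 fold change was 0.89 with an edgeR adjusted p of 0.410. In this comparison 5 of the 17 tRNAs were higher at 6 h without overlap (mt-Tn, mt-Tc, mt-Ty, mt-Te and mt-Tp) and 2 lower (mt-Tv and mt-Tt), beside 30.7% and 21% of all genes. mt-Tc and mt-Ty had log2 fold changes of 0.71 and 0.84 and edgeR adjusted p-values of 0.0838 and 0.0871 there, while mt-Ta was at 0.02. Other fits called more tRNAs higher at 6 h with PNU. DESeq2 called 2, where it called 23% of all genes. With the 6 PNU libraries fitted alone, edgeR called 5, where 32.1% of all genes were called.

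For PNU against DMSO at 2 h, edgeR called 0 of the 17 tRNAs, with 3 at an unadjusted p under 0.05, mt-Ty, mt-Tc and mt-Tn, all lower with PNU. mt-Ty was at 0.878, 1.83 and 0.719 CPM in DMSO 2 h and at 0.420, 0.457 and 0.616 CPM in PNU 2 h, without overlap. In 2 of the 17, mt-Ty and mt-Tn, every PNU library lay below every DMSO library, as in 13.6% of all genes. Its log2 fold change was -1.13 ± 0.32 (SE, edgeR adjusted p = 0.0738), on 19 to 95 counts per library, and DESeq2 called it, as it did 14.3% of all genes. mt-Tc and mt-Tn had log2 fold changes of -0.76 and -0.62, with edgeR adjusted p-values of 0.0964 and 0.104. Without DMSO 2 h replicate 3, edgeR called all 3 lower, with adjusted p-values of 0.00281 for mt-Ty, 0.00263 for mt-Tc and 0.0193 for mt-Tn, but 43.8% of all genes were then called as well.

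At 6 h the tRNAs leaned lower with PNU. edgeR called 0 of 17, with mt-Ta alone at an unadjusted p under 0.05, and 16 of the 17 log2 fold changes were negative, with a median of -0.39 against 0.00 over all genes. In 10 of the 17 every PNU library lay below every DMSO library, where 20.8% of all genes did so. In 1, mt-Tp, every PNU library lay above, where 14.1% of all genes did so. Some of the 10 rest on few counts per 6 h library: 4 to 13 for mt-Ti, 6 to 12 for mt-Ts2, 9 to 16 for mt-Tq and 11 to 31 for mt-Tv. Since tRNAs are cut from long shared RNAs, these rows are not independent of each other. mt-Ta was at 2.75, 3.52 and 2.87 CPM in DMSO 6 h and at 1.26, 1.82 and 1.83 CPM in PNU 6 h, a log2 fold change of -0.88 ± 0.23 (SE, edgeR adjusted p = 0.0990). DESeq2 called mt-Ta, with an adjusted p of 0.0133 where it called 5.34% of all genes. mt-Tl1, the highest tRNA row in DMSO 6 h, averaged 13.8 ± 0.726 CPM in DMSO 6 h and 11.0 ± 1.34 CPM in PNU 6 h (SD, n = 3) without overlap, a log2 fold change of -0.31 (edgeR adjusted p = 0.673). All DMSO 6 h libraries are near-identical to each other, so the absence of overlap rests on fewer separate samples than the 6 libraries. With DMSO, edgeR, DESeq2 and limma-voom called 0 tRNAs between 6 h and 2 h. In edgeR 0 had an unadjusted p under 0.05, while mt-Tn had an unadjusted p of 0.0461 in DESeq2 and 0.0244 in limma-voom.

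**Figure D4:**
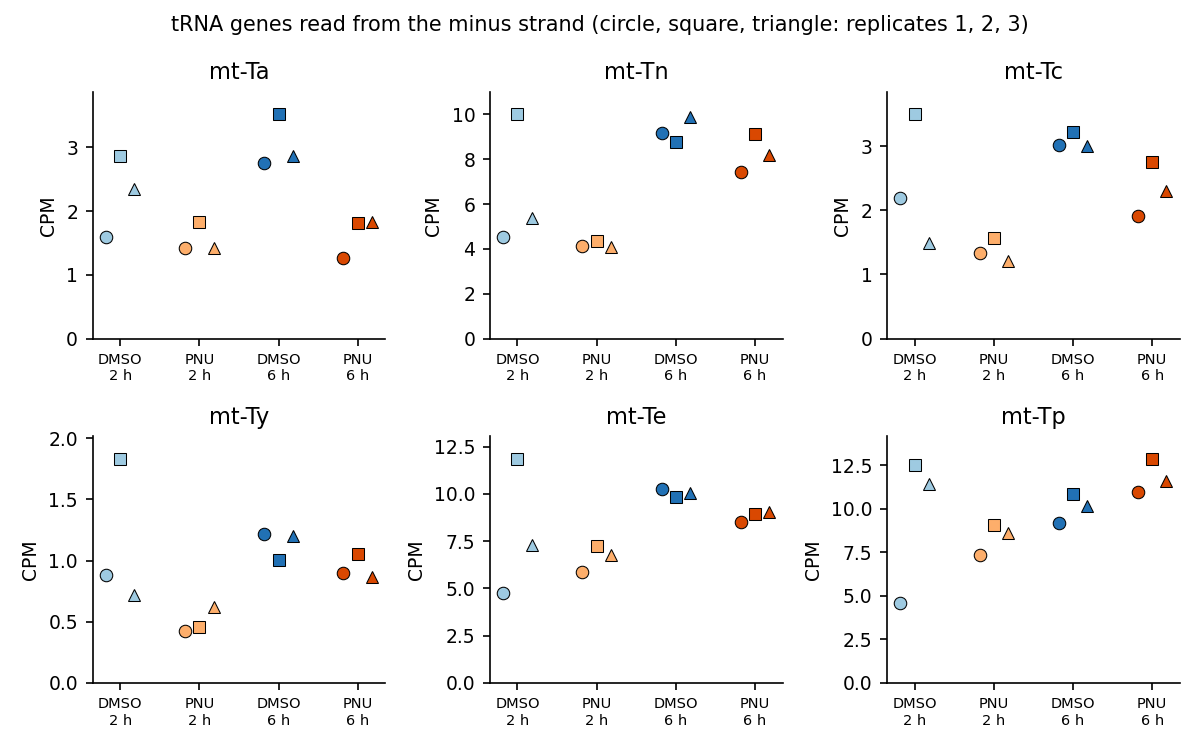
CPM (y axis, from 0) of 6 of the 8 minus-strand mitochondrial tRNA genes in each library (circles, squares and triangles for replicates 1, 2 and 3) by group (x axis). mt-Tn stands at 4.09 to 4.33 CPM in PNU 2 h and 7.43 to 9.14 CPM in PNU 6 h, and DMSO 2 h replicate 2 is the highest of its group in all 6 panels.

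By edgeR, nuclear genes that work with the mitochondrial ones gave no called change with PNU at either time. Across 13 lists, 254 of these genes were tested, and edgeR called 0 at 2 h, with 42 at an unadjusted p under 0.05, and 0 at 6 h, with 12. limma-voom also called 0 at both times, while DESeq2 called 16 at 2 h, where it called 14.3% of all genes, and 2 at 6 h, where it called 5.34%. Those at 6 h were Hsd17b10 and Lars2, named after their values were seen. Hsd17b10 was at 53.4, 56.2 and 54.9 CPM in DMSO 6 h and at 46.2, 45.9 and 44.6 CPM in PNU 6 h. Lars2 was at 1702, 1605 and 1587 CPM in DMSO 6 h and at 1810, 2107 and 2091 CPM in PNU 6 h. It is by far the highest tRNA synthetase of its list, with Iars2 next at 76.6 to 96.3 CPM over all libraries. At 2 h the 80 tested nuclear subunits of the oxidative phosphorylation chain had a median log2 fold change of -0.08, and at 6 h one of -0.04. Their summed level was 8072 to 8834 CPM in all libraries, with the highest value in DMSO 2 h replicate 1, the library with the lowest mitochondrial share.

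With PNU, 17 of the 254 nuclear genes were called between 2 h and 6 h, or 5 of the 80 chain subunits, where edgeR called 16.1% of all genes, 7.42% as higher and 8.66% as lower. Among the subunits, Ndufa3, Ndufb4 and Ndufc1 of complex I and Atp5o of the ATP synthase rose, with log2 fold changes of 0.33, 0.32, 0.26 and 0.28, and Ndufa12 of complex I fell by 0.45. The median over the 80 was -0.04, beside 0.28 for the mitochondrial mRNAs. Of 12 genes for replication of mitochondrial DNA, Polg, its polymerase, fell by 0.37 and Twnk, its helicase, fell by 0.34, and no other passed. Of 7 regulators of mitochondrial biogenesis, the coactivator Pprc1 fell by 0.72, from 125 ± 2.59 to 79.1 ± 3.57 CPM (SD, n = 3), and the transcription factors Nrf1 and Yy1 fell by 0.36 and 0.34. Ppargc1a, the best-known of these coactivators, was near 1 CPM and had a log2 fold change of 0.17. Of 21 genes for RNA processing and stability, 3 fell: Tbrg4 by 0.61, Pde12, which removes poly(A) tails from mitochondrial mRNAs, by 0.47, and the RNA helicase Supv3l1 by 0.25. Among 83 proteins of the mitochondrial ribosome, Mrpl33 rose by 0.22 and Mrpl50 and Mrps2 fell by 0.37 and 0.28. Of 12 chaperones and proteases, Phb2 alone passed and fell by 0.34. Ndufc1 and Yy1 are named after their values were seen.

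None of the 11 genes for mitochondrial transcription passed by edgeR, while DESeq2 called Tfam and Polrmt, where it called 23% of all genes. Tfam, which packages mitochondrial DNA and starts its transcription, was at 24.8, 27.6 and 24.6 CPM in PNU 2 h and at 18.9, 18.4 and 20.7 CPM in PNU 6 h, a log2 fold change of -0.47 with an edgeR adjusted p of 0.0579. Polrmt, the RNA polymerase, had a log2 fold change of -0.34 (edgeR adjusted p = 0.0558). Tfb2m, Tefm and Mterf3 were at -0.16, -0.06 and -0.25. Of the factors for RNA stability and processing, Lrpprc was at -0.29 (edgeR adjusted p = 0.0542) and Elac2, which trims tRNA ends, at -0.32 (edgeR adjusted p = 0.0594), while Slirp, Mtpap and Pnpt1 were at 0.00, -0.12 and -0.01, and Ssbp1 of the replication list at -0.01. Every PNU 6 h library lay below every PNU 2 h library for Tfam and Polrmt, as in 21% of all genes. Neither gene passed by edgeR. Leaving out any of the 6 PNU libraries lost 15 or 16 of the 17 nuclear calls, summing near-identical libraries into the small design above lost all 17, and using no filter on low counts lost 12. With DMSO edgeR called 0 of the 254 over time, with 8 at an unadjusted p under 0.05, and DESeq2 and limma-voom called 0.

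**Figure D5:**
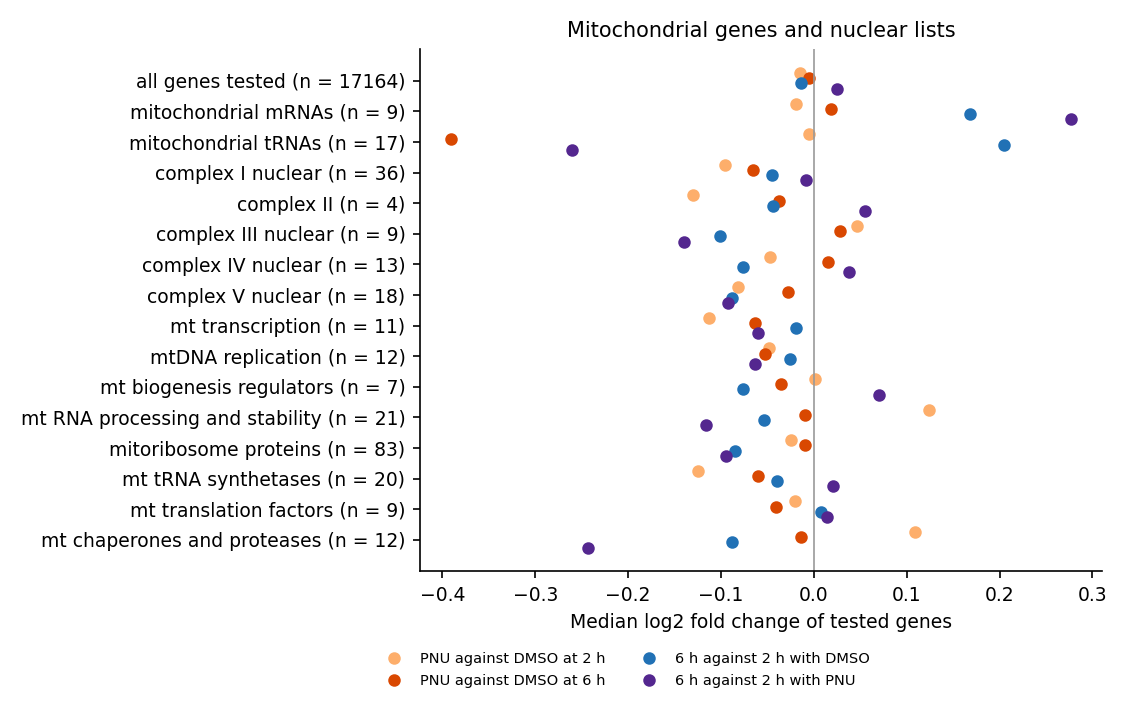
Median log2 fold change (x axis) of the tested genes of each list (y axis, with the number tested) in 4 comparisons, with all genes at the top. Mitochondrial mRNAs lie at 0.17 and 0.28 for 6 h against 2 h, and tRNAs at -0.39 for PNU against DMSO at 6 h.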

How the data were processed

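Poly(A)-selected RNA of 12 libraries was sequenced as paired reads of 150 bp, per the labels' protocols. Per the labels, the authors used fastp 0.23.2 for trimming, STAR 2.5.2b for alignment against GRCm38, and featureCounts (Subread 1.5.2) for counting. The deposited values are whole-number counts per gene, without normalization. The annotation release, strand setting and treatment of multi-mapping reads are not given in the sources used here. DESeq2 appears, without a role, in the submitters' processing notes.

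CPM uses raw library totals. edgeR 4.0.16 in R 4.3.3 fitted 4 group means over all 12 libraries (filterByExpr, TMM scaling, robust quasi-likelihood), with Benjamini-Hochberg adjustment over 17164 genes. The SE is the fold change divided by the square root of F. The script was tested on simulated data. The alternatives were DESeq2 1.42.0, limma-voom (limma 3.58.1), 2 scalings, 2 filters, a replicate block, fits of the contrast's libraries, no robust estimation, mitochondrial genes left out of library sizes, libraries left out, and near-identical libraries (coefficient of variation under 0.05) summed. Symbols came from GENCODE M21, which matched 48970 rows. Members and lists were chosen with earlier results of these data known.

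By rule, all mRNAs are named, as are tRNAs that passed the filter or stand at an extreme. Of each nuclear list, up to 2 passing members per direction with a mean of at least 1 CPM are named, as are 15 fixed regulators whatever their values.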

Additional observations from a re-analysis of the deposited data

How the results depend on the processing

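The count of mitochondrial mRNAs called was 0 in all 5 comparisons under every alternative run, except that 4 were called for 6 h against 2 h with PNU when only the 6 PNU libraries were fitted. With the replicate number as a block the counts were also 0. Deviations from the group mean were weakly correlated between same-numbered libraries for 6 h against 2 h with PNU (0.17, 0.11 and 0.099). In the other comparisons between groups the correlations lay between -0.068 and 0.058. The block added mt-Ta, lower with PNU at 6 h (edgeR adjusted p = 0.0440), and kept mt-Tn. With single libraries left out, the PNU minus DMSO difference in mitochondrial share ran from -0.261 to 0.0399 percentage points at 2 h and from -0.0608 to -0.00433 at 6 h. The 6 h minus 2 h difference ran from 0.0123 to 0.313 with DMSO and from 0.213 to 0.269 with PNU, where both groups hold a near-identical pair. Other denominators kept the sign of all 4 differences. Over single genes of the text, 3793 alternative values either kept a call or, for uncalled results, stayed within 1 SE of the reported value. Another 103 moved by more than 1 SE without a call, 138 lost a call and 52 gained one. The 138 losses all come from the few called results, mt-Tn and the 17 nuclear genes, while most of the 3793 belong to results that were never called. Library totals alone lost 5 of the 17 nuclear calls and the block lost 4. With near-identical libraries summed to 8 samples, 0 genes were called in the 4 comparisons between groups, against 2759 with PNU over time, and in a design this small the cause was not tested. DESeq2 called 14.3% of all genes at 2 h, where edgeR called 0.291%. Depth limits the 6 mRNAs and most tRNAs with under 100 counts.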

Other observations

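Some ratios within a library do not depend on its total and were picked after their values were seen, so they are given as descriptions. The counts of mt-Nd5 per count of mt-Cytb, neighbours that encode subunits of complexes I and III, were 0.458, 0.527 and 0.439 in DMSO 2 h and 0.456, 0.498 and 0.511 in PNU 2 h. They were 0.540, 0.533 and 0.542 in DMSO 6 h and 0.574, 0.582 and 0.601 in PNU 6 h, so every 6 h library lay above every 2 h library and PNU 6 h above DMSO 6 h. The ratio of mt-Nd1 to mt-Nd2 was 2.03 in DMSO 2 h replicate 1 and 1.56 to 1.68 in the other 11 libraries.

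The CPM of minus-strand over plus-strand tRNA rows was 2.80, 2.31 and 1.40 in DMSO 2 h, 1.40, 1.46 and 1.33 in PNU 2 h, 2.10, 2.03 and 2.10 in DMSO 6 h, and 2.67, 2.35 and 2.36 in PNU 6 h. PNU 2 h, with DMSO 2 h replicate 3, held the low end. As no source used here states whether counting was stranded, this ratio of rows does not measure RNA made from each strand. Counts on mt-Tl1 were 1.12% to 1.28% of those on the adjoining mt-Nd1 in PNU 2 h and 0.870% to 0.898% in PNU 6 h. With DMSO they were 0.652%, 0.965% and 1.34% at 2 h and 1.03% to 1.12% at 6 h, so DMSO 2 h spans both PNU groups.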
